A study of Mus musculus with 9 samples.

Results

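DP cells, positive for a GFP reporter of the Th17 lineage and for a Foxp3 reporter, were compared with SPR cells, positive for the GFP reporter alone, sorted from the same kind of Th17 culture. The 3 DP and 3 SPR libraries were chosen by their labels and paired by replicate number. They are 6 of the 9 libraries measured, and the other 3 are SPF cells, sorted for the Foxp3 reporter from a separate Treg culture. Of 24062 genes in the count table, 8975 exceeded 10 CPM (a gene's count over its library's total, times 1000000) in at least 1 of the 6 libraries and were tested. The comparison asks which transcripts go with Foxp3 among cells of the same strain, medium and time.

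Both populations grew from naive CD4+ T cells of the spleens of young adult male F1 mice. These mice carry the GFP reporter as a transgene and a Foxp3-IRES-mRFP knock-in, and the study describes them as heterozygous for both reporters. The cells were activated with beads coated with antibodies to CD3 and CD28 and kept for 3 days in 5 ng/ml TGFβ and 20 ng/ml IL6, with no antibody against competing cytokines. Live CD4+ cells were then sorted, GFP+ RFP+ as DP and GFP+ without RFP as SPR, so each fraction was defined by reporter protein. GFP is read from a transgene and not from an endogenous locus. SPF cells had the same genotype and time but TGFβ and IL2 in the medium, and their levels are given only beside those of DP and SPR cells.

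Th17 cells are CD4+ T cells whose cytokines IL17A and IL17F drive neutrophil responses at barrier tissues. Foxp3 is the transcription factor that defines regulatory T (Treg) cells, which restrain other T cells. TGFβ can steer activated naive cells to either fate, and IL6 tips the balance to the Th17 fate through STAT3.

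The assay was MARS-seq, in which the 3′ ends of polyadenylated RNA are sequenced. Total counts were 1495152 to 2447057 in DP and 2323243 to 3759662 in SPR libraries, so a single count stood for 0.266 to 0.669 CPM. DP replicate 3 had the lowest total and SPR replicate 3 the highest. T cell transcripts were high in all 6 libraries, with Cd3e, a chain of the T cell receptor complex, at 338.6 to 506 CPM in DP and 476 to 573 CPM in SPR. Markers of other cells were near the floor. The 13 myeloid and dendritic genes summed to 8.58 to 13.5 CPM in DP and 7.32 to 13.6 CPM in SPR (Csf1r, Itgax, Flt3 and Siglech were at 0 throughout), the 6 erythroid genes in the table to at most 2.01 CPM in DP and 1.86 CPM in SPR, and the 5 CD8 T and NK genes in the table to 17.4 to 27.8 CPM in DP and 18.1 to 38.4 CPM in SPR. The 11 B cell genes summed to 206.0 to 496.4 CPM in DP and 139.9 to 397 CPM in SPR. Of these only Ighm, the immunoglobulin heavy chain gene, passed the filter. Because bulk RNA was measured, fewer cells of a type and less RNA per cell cannot be told apart.

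Most transcripts had similar levels in DP and SPR cells, and a small share passed a test for a difference. In edgeR's quasi-likelihood test with the replicate number as a block (the paired fit), 313 of 8975 genes, or 3.49%, passed a Benjamini-Hochberg adjusted p of 0.05 and were called. Of these, 177 (1.97% of those tested) were higher and 136 (1.52%) lower in DP than in SPR cells. The fold change exceeded 2 for 150 called genes, 95 higher and 55 lower in DP. The median log2 fold change of all tested genes was -0.0056, and 86.2% of them lay between -0.5 and 0.5. Precision allowed such small values to be bounded for most genes: the 95% confidence interval lay within a log2 change of 1 in either direction for 82.4%. There were 70 calls among the 1851 genes at a mean of at least 100 CPM and 243 among the 7124 below it.

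**Figure D1:**
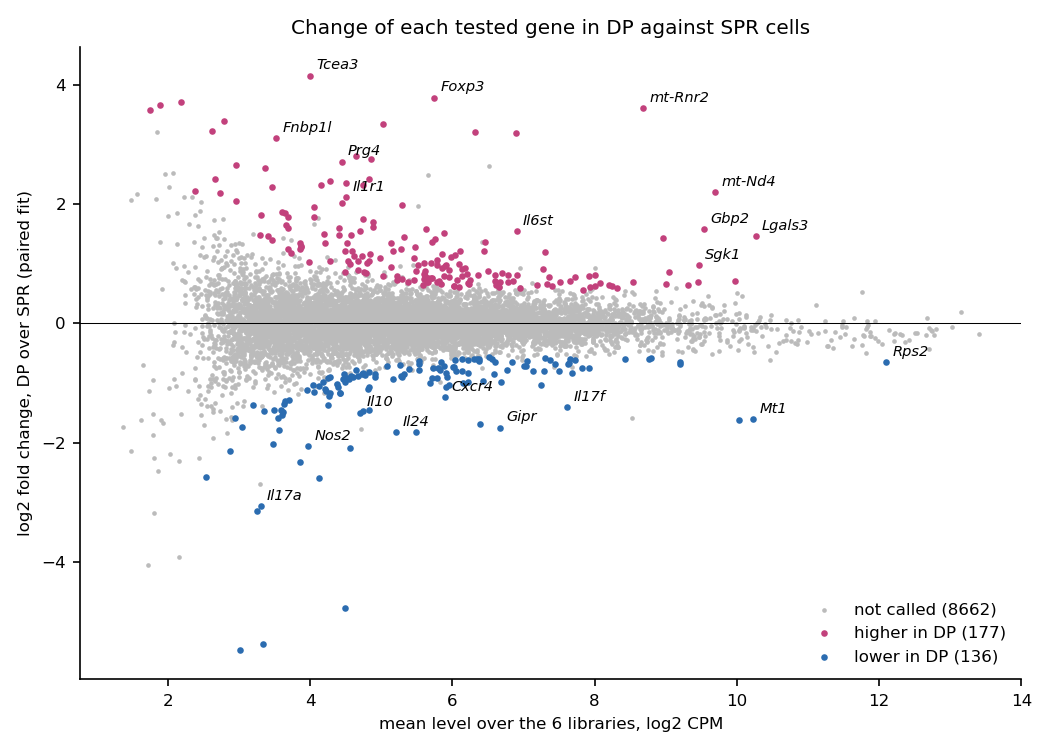
Each point is a tested gene, with its mean level over the 6 libraries in log2 CPM on the x axis and the log2 fold change of DP over SPR cells from the paired fit on the y axis. The 177 genes called higher in DP (pink) include Foxp3 and Tcea3, the 136 called lower (blue) include Il17a, Il17f and Mt1, and the 8662 genes that were not called are grey.

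These calls rest on the pairing. Without the block, the same 6 libraries gave 6 calls in edgeR, all higher in DP (Foxp3, Tcea3, Prg4, Tmem158, Acsl6 and D630039A03Rik, the last of them named after its values were seen), with 770 genes at an unadjusted p under 0.05 against 1433 in the paired fit. DESeq2 called 147 genes with the block and 85 without it. Scaling by library totals in place of TMM factors gave 218 higher and 110 lower genes. The count also moved with single pairs, to 110 without pair 1, 437 without pair 2 and 84 without pair 3. Of the 313 genes, 51 were called in all 3 of these smaller fits, 60 in 2 of them, 162 in 1 and 40 in none. In the 3 pairs taken one at a time, 305 of the called genes had the same direction in all of them, and 225 had CPM that did not overlap between DP and SPR libraries, as 14.5% of all tested genes did. By direction, 138 of the 177 higher genes did not overlap, against 9.09% of all tested genes, and 87 of the 136 lower genes, against 5.39%. The fit that called them used these same libraries, so these counts are a description.

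The pairs can also be set against one another across genes, which are not independent replicates. Over the 8975 genes, the log2 ratio of DP to SPR in pair 1 correlated with that in pair 2 at r = 0.252 and with that in pair 3 at r = 0.311, and pairs 2 and 3 correlated at r = 0.363, with 56.3, 58.0 and 59.0% of genes on the same side of 0. When genes were called from 2 pairs alone, the pair left out showed the same direction for 89 of 110 genes (80.9%, pair 1 left out), 386 of 437 (88.3%, pair 2) and 77 of 84 (91.7%, pair 3). The same share over all tested genes was 58.0, 59.0 and 60.7%.

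**Figure D2:**
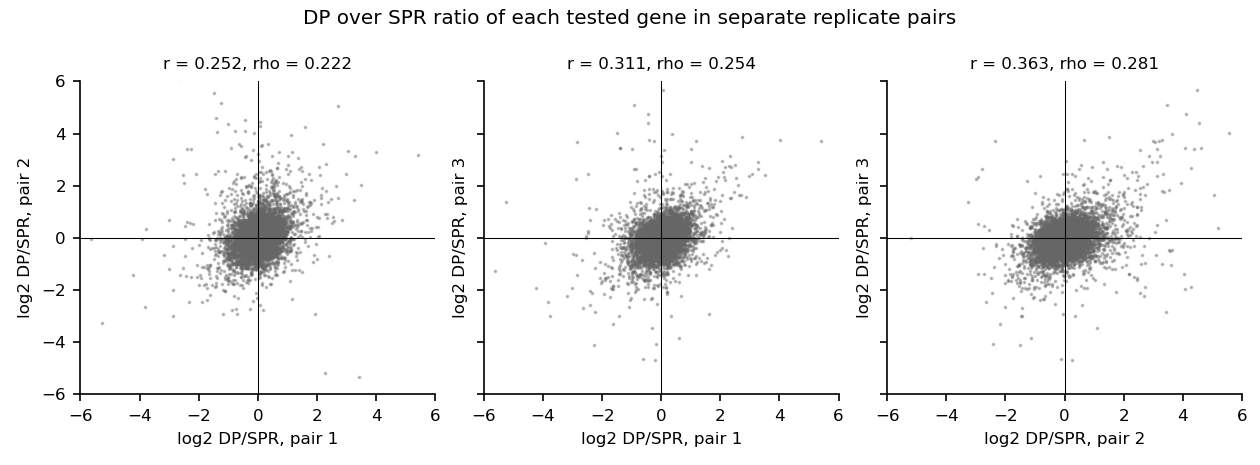
Log2 ratio of DP to SPR CPM of each of the 8975 tested genes in one replicate pair (x axis) against another (y axis), for the 3 combinations of pairs. Most genes form a round cloud at 0 in each panel, with Pearson's r of 0.252, 0.311 and 0.363.

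The gene of the Foxp3 reporter was measured first. Foxp3 had 130.0, 77.2 and 93.6 CPM in DP, in the order of replicates 1, 2 and 3, and 7.33, 7.32 and 6.38 CPM in SPR, and averaged 228 CPM in SPF cells. Every DP library stood above every SPR library by more than 10-fold, as the labels require (edgeR log2 fold change 3.78 ± 0.19 SE, adjusted p = 1.71e-06). Foxp3 is the gene of the sorting reporter, so this is a check and not a finding. It lies on chromosome X from 7573644 to 7595245 (GRCm38), where Flicr overlaps it on the same strand and Ppp1r3f, Gm36995 and Ccdc22 on the opposite strand. Ccdc22, named after its values were seen, had 15.1, 13.5 and 12.7 CPM in DP and 29.7, 26.3 and 28.2 CPM in SPR replicates (edgeR log2 fold change -1.06 ± 0.21 SE, adjusted p = 0.0197), the opposite direction to Foxp3. Its call did not hold without pair 1 (edgeR adjusted p = 0.127), without pair 3 (0.129) and in DESeq2 (0.148).

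Cd4, the coreceptor used as a sort gate, had 362, 309 and 389 CPM in DP and 469, 510.1 and 573 CPM in SPR replicates without overlap and was the 1 called gene of 18 in the T cell receptor and identity list (edgeR log2 fold change -0.60 ± 0.14 SE, adjusted p = 0.0388). That call did not hold without pair 1 (edgeR adjusted p = 0.119), pair 2 (0.0679) and pair 3 (0.24). Over all tested genes 3.49% were called, so 1 call in a list of this size is near the background.

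Th17 effector cytokines were lower in DP cells than in SPR cells, while the others did not pass the test. Of 10 tested genes, 5 fell and none rose (Il17a, Il17f, Il10, Il24 and Tgfb3), against 1.52% of all tested genes that fell, and the median log2 fold change was -0.95 against -0.0056 over all tested genes. This and the other gene lists were chosen with earlier results of these data known, so their shares are descriptions. The study itself reports Il17a, Il24 and Ccl20 as lower in DP from the same RNA-seq, and less IL17A protein by flow cytometry. Of these genes, Ccl20 was not called here and is described below. The list's median was -1.05, -0.845 and -0.853 in pairs 1, 2 and 3 taken alone. Il17a, the signature cytokine, had 0.421, 4.90 and 1.34 CPM in DP and 10.8, 32.7 and 9.04 CPM in SPR, and averaged 0.151 CPM in SPF cells. Its highest DP library lay below its lowest SPR library (edgeR log2 fold change -3.07 ± 0.42 SE, adjusted p = 0.00234). A single count stood for 0.421, 0.409 and 0.669 CPM in DP replicates 1, 2 and 3. The DP values of Il17a are thus near the floor, and its ratio is less certain than its direction. Il17f, which forms a heterodimer with IL17A, was more abundant, with 61.00, 183 and 87.6 CPM in DP and 185, 467 and 194 CPM in SPR. Replicate 2 was the highest in both populations, and DP stood below SPR in each pair (edgeR log2 fold change -1.41 ± 0.15 SE, adjusted p = 0.000324).

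Il10, an anti-inflammatory cytokine that Th17 cells can also make, had 7.15, 23.7 and 12.04 CPM in DP and 26.5, 50.4 and 36.97 CPM in SPR replicates, again without overlap (edgeR log2 fold change -1.5 ± 0.22 SE, adjusted p = 0.00327). Il24, a cytokine of the IL10 family, had 10.5, 26.6 and 12.04 CPM in DP and 33.8, 100.3 and 38.6 CPM in SPR (edgeR log2 fold change -1.83 ± 0.18 SE, adjusted p = 0.000246). Il24 and Il10 lie 132390 bases apart on chromosome 1, from 130882074 to 130887454 and from 131019845 to 131024974. Tgfb3, a TGFβ isoform that developing Th17 cells make themselves, had 92.6, 95.6 and 108 CPM in DP and 131, 189 and 153 CPM in SPR (edgeR log2 fold change -0.71 ± 0.15 SE, adjusted p = 0.0244), and it was not called without pair 1 (edgeR adjusted p = 0.0906) or without pair 3 (0.113). Il17a, Il17f, Il10 and Il24 were called in each fit that left out 1 pair and in DESeq2.

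The other effector genes were not called. Ccl20, the chemokine ligand of CCR6, had 8.41, 17.2 and 2.01 CPM in DP and 22.7, 27.1 and 7.98 CPM in SPR replicates, lower in each pair but with overlap between the groups (edgeR log2 fold change -1.18 ± 0.30 SE, adjusted p = 0.0518), and its side of the threshold depended on the fit. Its adjusted p was 0.00562 without pair 2, 0.0357 in limma, 0.307 without pair 1, 0.172 without pair 3, 0.236 in DESeq2 and 0.71 without the block, and it was also called without the low-count filter and without mitochondrial-encoded genes. Il21, a cytokine that sustains Th17 cells and helps B cells, had 24.8, 52.7 and 54.8 CPM in DP and 36.99, 43.5 and 40.2 CPM in SPR. Its DP libraries lay on both sides of the SPR range, and the 95% confidence interval of the log2 fold change was -0.41 to 0.48 (edgeR log2 fold change 0.03 ± 0.21 SE, adjusted p = 0.969). Tnf, Lta and Il9 had log2 fold changes of 0.11, -0.24 and 0.57, with 95% confidence intervals of -0.29 to 0.51, -0.53 to 0.06 and -0.54 to 1.69.

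Il17a (chromosome 1, 20730905 to 20734496) and Il17f (chromosome 1, 20777146 to 20790617) are neighbours, and with Mcm3, a subunit of the replicative helicase located 12350 bases beyond Il17f, they form a run of 3 genes that were all lower in DP. The promoters of Il17a and Il17f are shown because these adjacent genes fell together. Each has a single match to AGGTCA, a core bound by nuclear receptors, searched on both strands and given in capitals (TGACCT is the same motif on the other strand). The windows run from 250 bases before to 50 after the start of transcription, in the sense of the gene (RefSeq, GRCm38.p6), at chr1:20730655-20730954 for Il17a and chr1:20784221-20784520 on the minus strand for Il17f.
Il17a: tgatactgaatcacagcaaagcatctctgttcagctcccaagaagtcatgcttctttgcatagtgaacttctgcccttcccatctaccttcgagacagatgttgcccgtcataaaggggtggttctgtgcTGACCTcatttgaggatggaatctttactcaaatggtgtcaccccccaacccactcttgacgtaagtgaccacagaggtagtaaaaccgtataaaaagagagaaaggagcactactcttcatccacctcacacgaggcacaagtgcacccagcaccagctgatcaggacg
Il17f: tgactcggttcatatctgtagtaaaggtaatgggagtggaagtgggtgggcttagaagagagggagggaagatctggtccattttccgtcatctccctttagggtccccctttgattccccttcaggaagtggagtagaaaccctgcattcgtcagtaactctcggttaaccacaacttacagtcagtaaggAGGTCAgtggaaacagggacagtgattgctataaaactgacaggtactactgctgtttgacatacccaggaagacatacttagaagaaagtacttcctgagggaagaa
The match begins 120 bases before the RefSeq start in Il17a and 58 bases before it in Il17f. The Il17f window lies inside the span given above for that gene. That span is from GENCODE, so these annotations place the start of Il17f differently. AGGTCA or its reverse complement was present in 17.0% of 88 promoters of genes lower in DP, 9.63% of 135 promoters of genes higher in DP and 11.8% of 6911 promoters of all tested genes with an entry.

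Among the transcription factors of the Th17 program named here, only Rbpj passed the test. Of 19 tested genes in the Th17 program list, which leaves out the cytokines, 2 rose (Il1r1 and Il6ra) and 3 fell (Crispld2, Podnl1 and Rbpj), against 1.97% and 1.52% of all tested genes, with a median log2 fold change of 0.04. Rora, Batf, Irf4, Maf and Stat3, which act in Th17 differentiation, had log2 fold changes of -0.31, 0.15, -0.02, 0.16 and -0.09, with 95% confidence intervals of -0.61 to -0.02, -0.17 to 0.48, -0.39 to 0.34, -0.13 to 0.45 and -0.47 to 0.30. Ahr, the aryl hydrocarbon receptor, had 161, 118 and 117 CPM in DP and 88.3, 91.7 and 105 CPM in SPR replicates, without overlap but not called (edgeR log2 fold change 0.42 ± 0.15 SE, adjusted p = 0.195). Its known target genes Cyp1a1 and Cyp1b1, named after their values were seen, were called higher in DP. Cyp1a1 had 17.7, 23.3 and 40.1 CPM in DP and 10.1, 7.32 and 12.5 CPM in SPR (edgeR log2 fold change 1.35 ± 0.26 SE, adjusted p = 0.0177), and Cyp1b1 had 21.03, 10.2 and 22.1 CPM in DP and 1.74, 3.44 and 3.19 CPM in SPR (edgeR log2 fold change 2.61 ± 0.41 SE, adjusted p = 0.00542).

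Among the genes of this list that fell were Rbpj, the DNA-binding effector of Notch signalling, with 98.9, 237 and 119 CPM in DP and 173, 381 and 221 CPM in SPR replicates (edgeR log2 fold change -0.83 ± 0.14 SE, adjusted p = 0.00668), and Crispld2, which encodes a secreted protein, with 44.6, 50.3 and 52.2 CPM in DP and 68.04, 95.99 and 85.6 CPM in SPR (edgeR log2 fold change -0.80 ± 0.15 SE, adjusted p = 0.0134). For Rbpj the groups overlapped because replicate 2 was high in both, and DP was below SPR within each pair. The log2 fold change of Podnl1 was -0.92 (± 0.23 SE, adjusted p = 0.047 in edgeR). The adjusted p was above 0.05 without pair 1 for Cyp1b1 (0.0739), Rbpj (0.0688), Crispld2 (0.0621) and Podnl1 (0.27), without pair 3 for Cyp1a1 (0.184), Cyp1b1 (0.0665), Rbpj (0.0969), Crispld2 (0.112) and Podnl1 (0.182), and in DESeq2 for Cyp1a1 (0.0595) and Podnl1 (0.363).

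Receptors for IL1 and IL6 were higher in DP cells. For Il1r1 and Il1r2 the study itself reports a rise in DP from the same RNA-seq. Il1r1, the signalling receptor for IL1 that supports Th17 cells, had 47.5, 25.3 and 38.8 CPM in DP and 6.98, 6.03 and 11.97 CPM in SPR replicates, and no count in SPF cells. All DP libraries stood above all SPR libraries, and the call held in each fit without 1 pair and in DESeq2 (edgeR log2 fold change 2.11 ± 0.25 SE, adjusted p = 0.000692). Il1r2, the decoy receptor for IL1, stayed below the filter, with 14, 7 and 9 counts in DP against 1, 2 and 3 counts in SPR. Tested without the filter, it gave 2.75 ± 0.71 SE on the log2 scale (edgeR adjusted p = 0.00519). Il1rl2, another receptor of the IL1 family, also stayed below the filter and went the other way. Named after its values were seen, Il1rl2 had 1, 0 and 1 counts in DP against 9, 5 and 26 counts in SPR. Il18r1, a chain of the IL18 receptor, had a log2 fold change of 0.76 and was not called (edgeR adjusted p = 0.0726). Of 9 tested genes of IL1 and IL18 signalling, Il1r1 was the 1 that passed, against 3.49% of all tested genes. In that list 8 genes were positive, and the median was 0.43. Il23r, the receptor that stabilizes Th17 cells, had 1 count in the 3 DP libraries and none in SPR libraries, which is too few to compare.

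Il6st, the signalling chain gp130 shared by receptors of the IL6 family, had 256, 125 and 163 CPM in DP and 69.4, 47.8 and 58.2 CPM in SPR replicates. Its lowest DP value lay well above its highest SPR value, and the call held whichever pair was left out (edgeR log2 fold change 1.55 ± 0.15 SE, adjusted p = 0.000213). Il6ra, the chain that binds IL6, had 209, 132 and 88.95 CPM in DP and 70.8, 87.4 and 70.5 CPM in SPR (edgeR log2 fold change 0.80 ± 0.20 SE, adjusted p = 0.0498), and Socs3, the feedback inhibitor that STAT3 induces and that binds gp130, had 1063, 619.5 and 691 CPM in DP and 553, 405 and 494 CPM in SPR (edgeR log2 fold change 0.64 ± 0.14 SE, adjusted p = 0.035). Both were without overlap between the groups. In all, 3 of 15 tested genes of the IL6 and STAT3 list rose, against 1.97% of all tested genes, none fell, and the median was 0.16. The IL2 and STAT5 list had 4 of 18 genes higher (Il2ra, Osm, Socs2 and Socs3), against the same 1.97%, none lower and a median of 0.0041. Osm, which encodes oncostatin M, rose by 0.65 ± 0.13 SE on the log2 scale (edgeR adjusted p = 0.0246). At a threshold of 0.05 for the adjusted p, calls ended without pair 1 for Il6ra (0.288), Socs3 (0.195) and Osm (0.116), without pair 3 for Il6ra (0.0796), Socs3 (0.155) and Osm (0.233), and in DESeq2 for Il6ra (0.0602).

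Treg-associated genes were divided. Of 27 tested genes in the Treg program list, 10 rose and 3 fell, against 1.97% and 1.52% of all tested genes, and the median log2 fold change was 0.22, which counts the sorting gene Foxp3 among those that rose. Gpr83, a G protein-coupled receptor typical of Treg cells, had 67.3, 136 and 60.2 CPM in DP and 23.03, 49.9 and 18.4 CPM in SPR replicates and averaged 42.7 CPM in SPF cells. Replicate 2 was the highest in both populations, and DP exceeded SPR in each pair (edgeR log2 fold change 1.51 ± 0.15 SE, adjusted p = 0.000262). Its neighbour Izumo1r, the folate receptor-like protein FR4 of Treg cells, lies 15024 bases away on chromosome 9 and had 648, 633 and 616 CPM in DP against 363, 495 and 322 CPM in SPR (edgeR log2 fold change 0.67 ± 0.15 SE, adjusted p = 0.037). Nrp1, a coreceptor for semaphorins and VEGF, had 28.2, 30.6 and 18.7 CPM in DP and 4.88, 11.2 and 6.12 CPM in SPR, while SPF cells averaged 65.4 CPM (edgeR log2 fold change 1.79 ± 0.28 SE, adjusted p = 0.00478).

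Lrrc32, the protein GARP that holds latent TGFβ on the cell surface, had 204, 187 and 218 CPM in DP and 81.6, 132 and 106 CPM in SPR replicates without overlap (edgeR log2 fold change 0.91 ± 0.16 SE, adjusted p = 0.0113). Il2ra, the IL2 receptor chain CD25, had 359, 485 and 253 CPM in DP and 178, 304 and 194 CPM in SPR, higher in each pair though the groups overlapped (edgeR log2 fold change 0.65 ± 0.15 SE, adjusted p = 0.0378). Entpd1, the ectoenzyme CD39 that breaks down extracellular ATP, had 39.96, 18.8 and 34.8 CPM in DP and 22.3, 8.18 and 14.1 CPM in SPR (edgeR log2 fold change 1.04 ± 0.21 SE, adjusted p = 0.0236). The remaining genes that rose were Socs2, an inhibitor of cytokine signalling, the costimulatory receptor gene Icos and the transcription factor gene Gata3, at log2 fold changes of 0.68, 0.88 and 0.72 (SE 0.14, 0.17 and 0.16, edgeR adjusted p = 0.0243, 0.0163 and 0.0301). Calls did not hold without pair 1 for Izumo1r (0.186), Nrp1 (0.0662), Lrrc32 (0.114), Il2ra (0.232), Entpd1 (0.101), Socs2 (0.0661), Icos (0.0613) and Gata3 (0.169), without pair 3 for Izumo1r (0.313), Lrrc32 (0.124), Il2ra (0.112), Entpd1 (0.179), Socs2 (0.215), Icos (0.18) and Gata3 (0.15), and in DESeq2 for Entpd1 (0.139), Icos (0.0601) and Gata3 (0.223) (adjusted p in brackets).

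Genes of the same list that fell were Il10, described above, Tnfrsf9 and Ebi3. Tnfrsf9, the costimulatory TNF receptor 4-1BB of activated T cells, had 19.4, 67.4 and 35.4 CPM in DP and 57.9, 195 and 127 CPM in SPR replicates. DP lay below SPR by a similar factor in each pair, and the overlap of the groups came from the high replicate 2 (edgeR log2 fold change -1.68 ± 0.15 SE, adjusted p = 0.000163). Ebi3, a subunit of IL27 and IL35, averaged 16.2 ± 6.36 CPM in DP and 28.2 ± 10.7 CPM in SPR (SD, n = 3 each) and had a log2 fold change of -0.85 (edgeR adjusted p = 0.0429), but was not called whichever pair was left out, at 0.153, 0.0985 and 0.188 without pairs 1, 2 and 3, and in DESeq2 (0.365). Ctla4 and Tnfrsf18 (GITR), receptors that Treg cells carry at high levels, were not called, with 95% confidence intervals of -0.65 to 0.10 and -0.63 to 0.04. None of 10 tested co-inhibitory receptor genes was called (median 0.23). Of 16 costimulatory and TNF receptor genes, 2 rose (Icos and Slamf6) and 2 fell (Tnfrsf9 and Tnfsf14), with a median of -0.10. The shares over all tested genes were 1.97% and 1.52%. Tnfsf14, the cytokine LIGHT, had 2.52, 7.76 and 10.03 CPM in DP and 10.1, 22.8 and 20.2 CPM in SPR (edgeR log2 fold change -1.49 ± 0.31 SE, adjusted p = 0.0244). For Tnfsf14 the adjusted p was 0.12 without pair 1, 0.0818 without pair 3 and 0.103 in DESeq2.

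**Figure D3:**
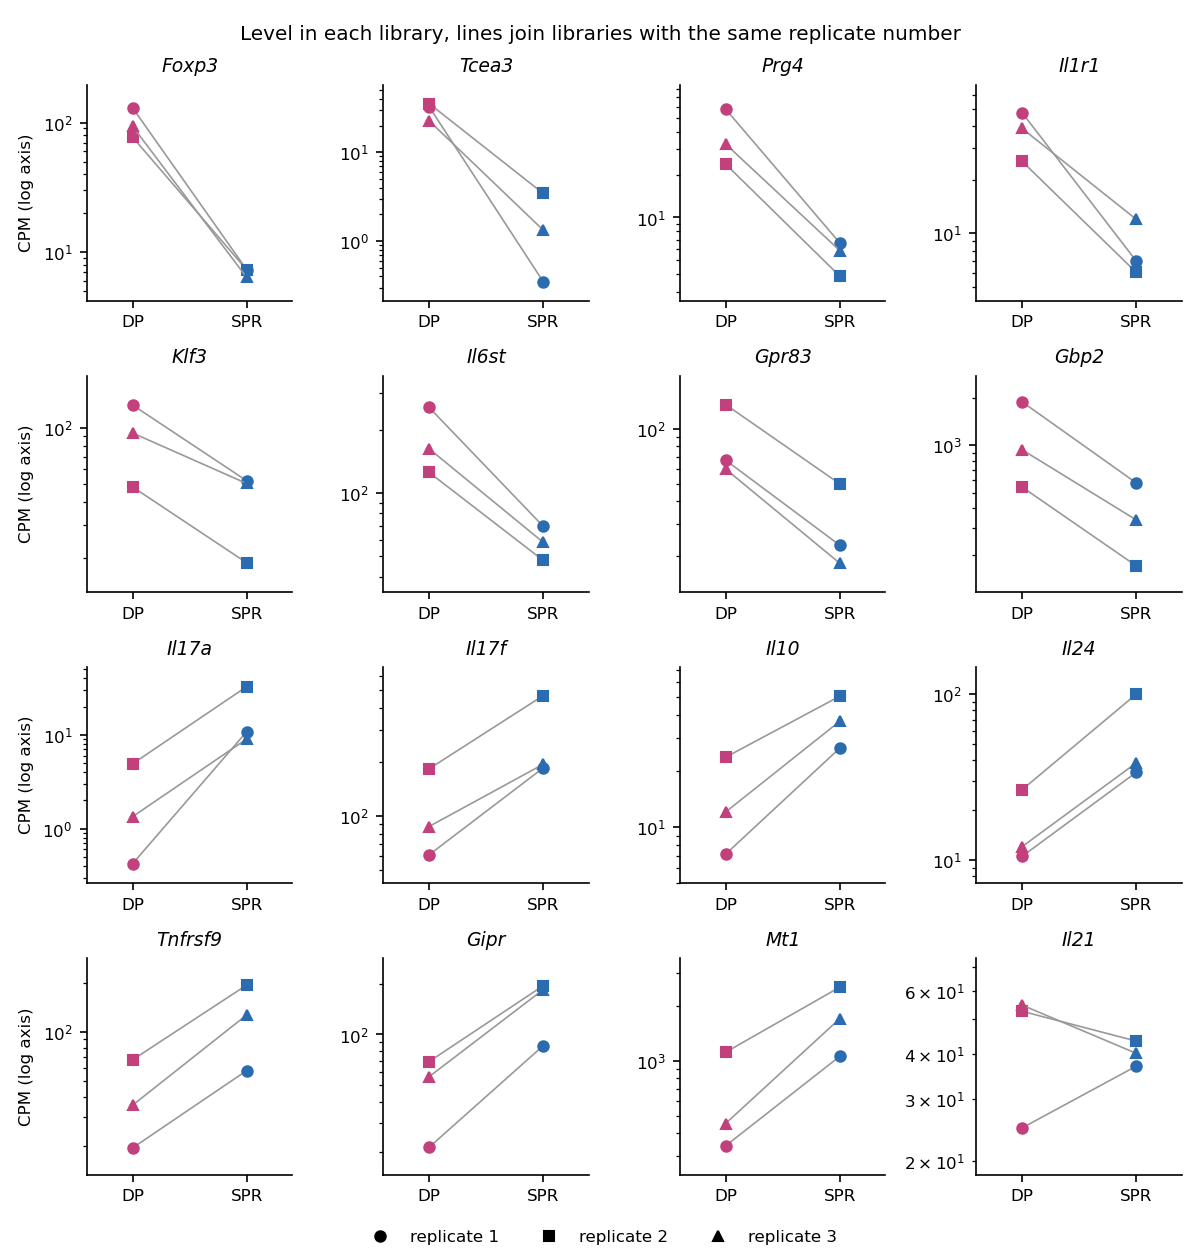
CPM (log axis) of 16 genes in each DP library (pink, left) and each SPR library (blue, right), with lines that join the libraries of one replicate number (circle 1, square 2, triangle 3). Lines fall to the right for genes higher in DP, such as Foxp3 and Il6st, and rise to the right for genes lower in DP, such as Il17f and Tnfrsf9, in all 3 pairs, while the lines of Il21 run in both directions.

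Genes of recirculation and of follicular helper and memory-like T cells were among those higher in DP. Klf2, the transcription factor that induces S1pr1, had 665, 529 and 831 CPM in DP and 527, 202 and 411 CPM in SPR (edgeR log2 fold change 0.86 ± 0.19 SE, adjusted p = 0.0315). Klf3, of the same family, had 132, 48.2 and 93.6 CPM in DP and 51.99, 18.9 and 50.3 CPM in SPR (edgeR log2 fold change 1.14 ± 0.16 SE, adjusted p = 0.00235). S1pr1, the receptor that guides egress from lymphoid organs, rose by 0.67 ± 0.15 SE on the log2 scale (edgeR adjusted p = 0.0297). For Klf3 and S1pr1 the groups overlapped although DP was higher in each pair, since replicate 2 was the lowest in both populations.

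The naive and recirculation list was not uniform: 5 of 15 tested genes rose (Klf2, Klf3, S1pr1 and Igfbp4 among them), 2 fell (Il7r and Ly6c1), against 1.97% and 1.52% of all tested genes, and the median was 0.22. Il7r, the IL7 receptor chain of resting T cells, had 51.7, 41.3 and 115 CPM in DP and 118, 58.1 and 191 CPM in SPR replicates (edgeR log2 fold change -0.86 ± 0.16 SE, adjusted p = 0.0163). Ccr7, Tcf7 and Lef1, which also mark naive cells, were not called, at log2 fold changes of -0.13, -0.35 and 0.05 with 95% confidence intervals of -0.42 to 0.16, -0.67 to -0.04 and -0.26 to 0.35. Igfbp4 and Ly6c1 had log2 fold changes of 0.69 and -0.67 (edgeR adjusted p = 0.0397 and 0.0336). The adjusted p was above 0.05 without pair 1 for S1pr1 (0.136), Igfbp4 (0.0513) and Il7r (0.13), without pair 3 for Klf2 (0.22), S1pr1 (0.117), Igfbp4 (0.396), Il7r (0.116) and Ly6c1 (0.253), and in DESeq2 for Igfbp4 (0.0764).

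Of 13 tested genes of the follicular helper and memory-like list, 4 rose (Il6st, Pou2af1, Bcl6 and Slamf6), against 1.97% of all tested genes, none fell, and the median was 0.51. The list holds 16 genes, and those below the filter were not tested. Bcl6, the transcription factor of follicular helper cells, had 21.5, 20.02 and 21.4 CPM in DP and 7.33, 7.32 and 10.1 CPM in SPR replicates, without overlap (edgeR log2 fold change 1.3 ± 0.26 SE, adjusted p = 0.0219). Pou2af1, a transcriptional coactivator best known from B cells, had 30.7, 18.8 and 32.1 CPM in DP and 13.96, 4.30 and 10.4 CPM in SPR (edgeR log2 fold change 1.5 ± 0.26 SE, adjusted p = 0.00949). B cell genes were near the floor in these libraries apart from Ighm, whose log2 fold change was 0.31, and the part of B cells in the Pou2af1 result was not tested. Slamf6, a receptor of the SLAM family, had 133, 82.5 and 144 CPM in DP and 59.3, 21.1 and 80.9 CPM in SPR (edgeR log2 fold change 1.21 ± 0.19 SE, adjusted p = 0.00542). At a threshold of 0.05 for the adjusted p, calls ended without pair 1 for Bcl6 (0.136) and Slamf6 (0.0543), without pair 3 for Bcl6 (0.0814) and Pou2af1 (0.0873), and in DESeq2 for Bcl6 (0.114). Cxcr4, a chemokine receptor, and Itgal, an integrin chain of LFA-1, fell in DP, while 2 genes rose, S1pr1 among them, of 16 tested genes of chemokine receptors and homing with a median of 0.05. Over all tested genes, 1.97% rose and 1.52% fell. Cxcr4 had 26.1, 30.6 and 52.2 CPM in DP and 51.99, 89.5 and 108 CPM in SPR (edgeR log2 fold change -1.24 ± 0.16 SE, adjusted p = 0.0018), and Itgal had a log2 fold change of -0.76 (edgeR adjusted p = 0.0398, and 0.143, 0.0705 and 0.0816 without pairs 1, 2 and 3).

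The largest increases included genes outside the Th17 and Treg lists. Tcea3, a transcription elongation factor of the TFIIS family, had 32.8, 35.6 and 22.7 CPM in DP and 0.349, 3.44 and 1.33 CPM in SPR replicates (edgeR log2 fold change 4.15 ± 0.40 SE, adjusted p = 0.000246). The SPR values are 1, 8 and 5 counts, so its ratio is less certain than its direction. Prg4, which encodes the secreted proteoglycan lubricin, had 57.6, 23.7 and 32.8 CPM in DP and 6.63, 3.87 and 5.85 CPM in SPR (edgeR log2 fold change 2.71 ± 0.24 SE, adjusted p = 0.000163), and Tpr overlaps it on the opposite strand. Fnbp1l, a membrane-binding regulator of actin, had 33.7, 16.8 and 12.04 CPM in DP and 3.49, 1.29 and 1.86 CPM in SPR (edgeR log2 fold change 3.11 ± 0.35 SE, adjusted p = 0.000584). Acsl6, a synthetase that activates long-chain fatty acids, had 69.4, 65.8 and 52.2 CPM in DP and 14.7, 21.95 and 10.6 CPM in SPR (edgeR log2 fold change 1.98 ± 0.19 SE, adjusted p = 0.000246). For each of these genes the lowest DP library exceeded the highest SPR library, and each was called whichever pair was left out and in DESeq2.

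Tmem106a, Ncmap and Tmem158, which encode membrane proteins, belonged to the same set, with log2 fold changes of 2.38, 2.35 and 2.33 (SE 0.25, 0.24 and 0.27, edgeR adjusted p = 0.000324, 0.000324 and 0.000596). Gm14005, a long non-coding RNA known as Morrbid that represses the adjacent gene Bcl2l11 in mouse myeloid cells, had 68.99, 43.7 and 38.8 CPM in DP and 12.9, 5.60 and 3.99 CPM in SPR replicates (edgeR log2 fold change 2.76 ± 0.23 SE, adjusted p = 0.000163). Bcl2l11, the proapoptotic gene Bim 15771 bases from it on chromosome 2, was also higher in DP, with 122, 60.5 and 95.6 CPM against 68.4, 37.9 and 61.7 CPM in SPR (edgeR log2 fold change 0.67 ± 0.14 SE, adjusted p = 0.0246). It was the 1 called gene of 11 in the apoptosis list (median 0.17), against 3.49% of all tested genes. The adjusted p of Bcl2l11 was 0.148 without pair 1, 0.172 without pair 3 and 0.111 in DESeq2. Gm14005 is overlapped by Gm14012 on the same strand and by Gm14009, Gm14010 and Gm29010 on the opposite strand, so its counts could include theirs. Gm4204, a pseudogene, was called higher with 38.3, 7.76 and 61.5 CPM in DP and 8.37, 7.32 and 7.45 CPM in SPR, but its DP replicate 2 lay within the SPR range and reads may be shared with its parent gene. For Gm4204 the adjusted p was 0.178 without pair 1, 0.254 without pair 3 and 0.385 in DESeq2.

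Guanylate-binding proteins, GTPases that interferons induce, were the genes of the interferon list that rose. Gbp2 had 1894, 543 and 938 CPM in DP and 577, 171 and 335 CPM in SPR replicates, and SPF cells averaged 84.5 CPM (edgeR log2 fold change 1.58 ± 0.14 SE, adjusted p = 0.000163). Gbp3 had 106, 30.6 and 55.5 CPM in DP and 39.4, 12.5 and 23.4 CPM in SPR (edgeR log2 fold change 1.28 ± 0.16 SE, adjusted p = 0.00134). Replicate 1 was the highest and replicate 2 the lowest of both genes in both populations, so the groups overlapped while each pair differed. Gbp7, located next to them on chromosome 3 and named after its values were seen, had 29.4, 15.1 and 13.4 CPM in DP and 9.77, 2.15 and 6.12 CPM in SPR (edgeR log2 fold change 1.64 ± 0.33 SE, adjusted p = 0.0224), and it was not called without pair 1 (adjusted p = 0.15). Of 11 tested interferon response genes, Gbp2 and Gbp3 rose, against 1.97% of all tested genes, none fell, and the median was 0.18. Irf7 and Irf9, regulators of that response, had log2 fold changes of 0.04 and 0.13 and were not called.

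Both metallothionein genes fell in DP cells. Mt1 had 342, 1112 and 453 CPM in DP and 1057, 2524 and 1699 CPM in SPR replicates (edgeR log2 fold change -1.61 ± 0.16 SE, adjusted p = 0.000262), and Mt2 had 281, 945 and 411 CPM in DP and 840.2, 2225 and 1575 CPM in SPR (edgeR log2 fold change -1.63 ± 0.16 SE, adjusted p = 0.000246). They encode small proteins that bind zinc and other metals. In both, replicate 2 was the highest library of its population, DP was below SPR in each pair, and the calls held whichever pair was left out and in DESeq2. Mt2 (chromosome 8, 94172664 to 94173568, with Gm45774 on the opposite strand) lies 5513 bases from Mt1 (94179082 to 94180327).

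The promoters of Mt1 and Mt2 are given because the genes are adjacent, fell by nearly the same factor and are the textbook targets of the metal-sensing factor MTF-1. Capitals mark TGCNCNC on either strand, a looser form of TGCRCNC (R is A or G), the core of the metal response element. The windows are chr8:94178839-94179138 for Mt1 and chr8:94172368-94172667 for Mt2, both on the plus strand and from 250 bases before to 50 after the start (RefSeq, GRCm38.p6).
Mt1: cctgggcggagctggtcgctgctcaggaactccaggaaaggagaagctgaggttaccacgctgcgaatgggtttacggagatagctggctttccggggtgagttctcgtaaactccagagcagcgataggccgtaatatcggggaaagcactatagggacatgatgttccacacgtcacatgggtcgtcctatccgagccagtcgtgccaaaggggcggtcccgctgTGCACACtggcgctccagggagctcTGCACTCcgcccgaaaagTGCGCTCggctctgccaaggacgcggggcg
Mt2: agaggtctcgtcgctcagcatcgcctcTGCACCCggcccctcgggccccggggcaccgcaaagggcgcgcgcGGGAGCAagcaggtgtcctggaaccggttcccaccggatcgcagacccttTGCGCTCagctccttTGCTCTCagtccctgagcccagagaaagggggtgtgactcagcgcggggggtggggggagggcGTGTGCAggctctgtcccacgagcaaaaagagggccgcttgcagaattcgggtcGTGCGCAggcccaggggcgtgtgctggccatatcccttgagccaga
Mt1 held 3 and Mt2 held 6 matches. The motif is short and frequent, and 60.1% of 6911 promoters of tested genes held at least 1, against 57.0% of the promoters of genes higher in DP and 61.4% of those lower in DP.

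Other genes with large decreases encode receptors, secreted inhibitors and enzymes. Gipr, the receptor of a gut incretin hormone, had 21.5, 69.1 and 56.2 CPM in DP and 85.8, 195 and 185 CPM in SPR replicates, without overlap (edgeR log2 fold change -1.75 ± 0.15 SE, adjusted p = 0.000163). Serpinf1, the secreted factor PEDF, had 12.6, 26.97 and 21.4 CPM in DP and 48.8, 92.97 and 66.8 CPM in SPR (edgeR log2 fold change -1.83 ± 0.17 SE, adjusted p = 0.000188). Nos2, the inducible nitric oxide synthase, had 4.21, 7.76 and 5.35 CPM in DP and 9.07, 32.3 and 35.4 CPM in SPR (edgeR log2 fold change -2.05 ± 0.31 SE, adjusted p = 0.00403). Its adjusted p was 0.0665 without pair 3. In each of these genes DP was lower in all 3 pairs.

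Slc4a11, a membrane transporter, Inha, the inhibin α chain, and Asb2, a subunit of a ubiquitin ligase, had log2 fold changes of -1.47, -1.46 and -1.37 (SE 0.21, 0.23 and 0.24, edgeR adjusted p = 0.00266, 0.00572 and 0.0104). Asb2 was not called without pair 3 (0.0839) or in DESeq2 (0.0573). The pseudogenes Gm13292 and Gm16409 were called lower, but their SPR libraries ranged from 4.54 to 48.4 CPM and from 5.93 to 50.3 CPM, and reads shared with their parent genes make them uncertain. For Gm16409 the adjusted p was 0.377 without pair 3 and 0.371 in DESeq2. Pseudogenes were called in 5.33% of 225 cases, against 3.44% of 8420 protein-coding genes. In the TGFβ response list of 20 genes, 2 fell, Tgfb3 among them, Tgfbr1, a TGFβ receptor chain, rose (log2 fold change 0.70, edgeR adjusted p = 0.0376, 0.0853 without pair 1, 0.308 without pair 3 and 0.225 in DESeq2), and the median was 0.06. Over all tested genes, 1.52% fell and 1.97% rose.

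Among abundant transcripts, Lgals3, Sgk1 and Rps2 were called and are given here, named after their values were seen. Lgals3, the carbohydrate-binding protein galectin-3, had 1904, 1338 and 2159 CPM in DP and 1001, 477 and 505 CPM in SPR replicates (edgeR log2 fold change 1.46 ± 0.20 SE, adjusted p = 0.00244). Sgk1, a kinase that has been linked to Th17 cells and salt, had 1203, 952 and 695 CPM in DP and 564, 502 and 337 CPM in SPR (edgeR log2 fold change 0.98 ± 0.14 SE, adjusted p = 0.00249). Neither overlapped between the populations, and both calls held whichever pair was left out and in DESeq2. Rps2, a ribosomal protein gene, had 3015, 3088 and 4394 CPM in DP and 5277, 5672 and 4845 CPM in SPR (edgeR log2 fold change -0.65 ± 0.16 SE, adjusted p = 0.0499), and its adjusted p was 0.27, 0.0607 and 0.0571 without pairs 1, 2 and 3.

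Lists of metabolism, stress and proliferation held 0 to 3 calls each, and 3.49% of all tested genes were called, so counts of 0 or 1 in lists of this size are near the background. Of 20 glycolysis genes, Slc2a3, the glucose transporter GLUT3, was the 1 called, with 509.9, 327 and 564 CPM in DP and 644, 683 and 817 CPM in SPR replicates (edgeR log2 fold change -0.69 ± 0.16 SE, adjusted p = 0.0377). Its adjusted p was 0.088, 0.107 and 0.172 without pairs 1, 2 and 3. Of the 20 values, 19 were negative, and the list's median was -0.23, and -0.142, -0.306 and -0.232 in pairs 1, 2 and 3. Of 14 hypoxia response genes, 1 rose (P4ha1) and 2 fell (Adm and P4ha2), with a median of -0.17. Cell cycle genes had a median of -0.08, and 1 of 31 fell, Mcm3, with 74.5, 134 and 64.2 CPM in DP and 121, 200.2 and 91.5 CPM in SPR (edgeR adjusted p = 0.0255, 0.146 without pair 1, 0.163 without pair 3 and 0.0632 in DESeq2). No gene of 17 in the unfolded protein response was called (median 0.03).

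Sterol synthesis had 1 higher gene of 18, Msmo1, and a median of 0.04. The ATF4 amino acid response had 1 higher gene of 16, Trib3, a pseudokinase, with 77.8, 153 and 62.9 CPM in DP and 39.8, 52.5 and 26.6 CPM in SPR replicates (edgeR log2 fold change 1.21 ± 0.16 SE, adjusted p = 0.00196), and 1 lower, Vldlr, with a median of -0.10. Of 14 immediate early genes, Zfp36, which promotes decay of cytokine mRNAs, was the 1 that rose (edgeR log2 fold change 0.81 ± 0.14 SE, adjusted p = 0.0113), and the median was 0.29. Among 10 genes of nitric oxide, arginine and polyamine metabolism (median -0.09) only Nos2 was called. No Th1 gene of 5 tested was called (median 0.12), and of 5 Th2 genes Gata3 rose and Il24 fell (median -0.07). Il4, the Th2 cytokine, stayed below the filter with 4, 6 and 4 counts in DP against 15, 8 and 16 counts in SPR (-0.98 on the log2 scale and an edgeR adjusted p = 0.566 without the filter). Among 6 cytotoxic and NK receptor genes Klrd1 and Prf1 rose (median 0.19), at log2 fold changes of 1.60 and 1.4 (edgeR adjusted p = 0.0265 and 0.0388). Over all tested genes, 1.97% rose and 1.52% fell. Calls did not hold without pair 1 for P4ha1 (0.27), P4ha2 (0.0962), Adm (0.14), Msmo1 (0.117), Vldlr (0.105), Zfp36 (0.0874) and Prf1 (0.185), without pair 2 for Msmo1 (0.176), without pair 3 for P4ha1 (0.253), P4ha2 (0.22), Adm (0.165), Msmo1 (0.174), Vldlr (0.268), Klrd1 (0.182) and Prf1 (0.12), and in DESeq2 for P4ha2 (0.077), Adm (0.191), Msmo1 (0.314), Vldlr (0.273) and Prf1 (0.165) (adjusted p in brackets).

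**Figure D4:**
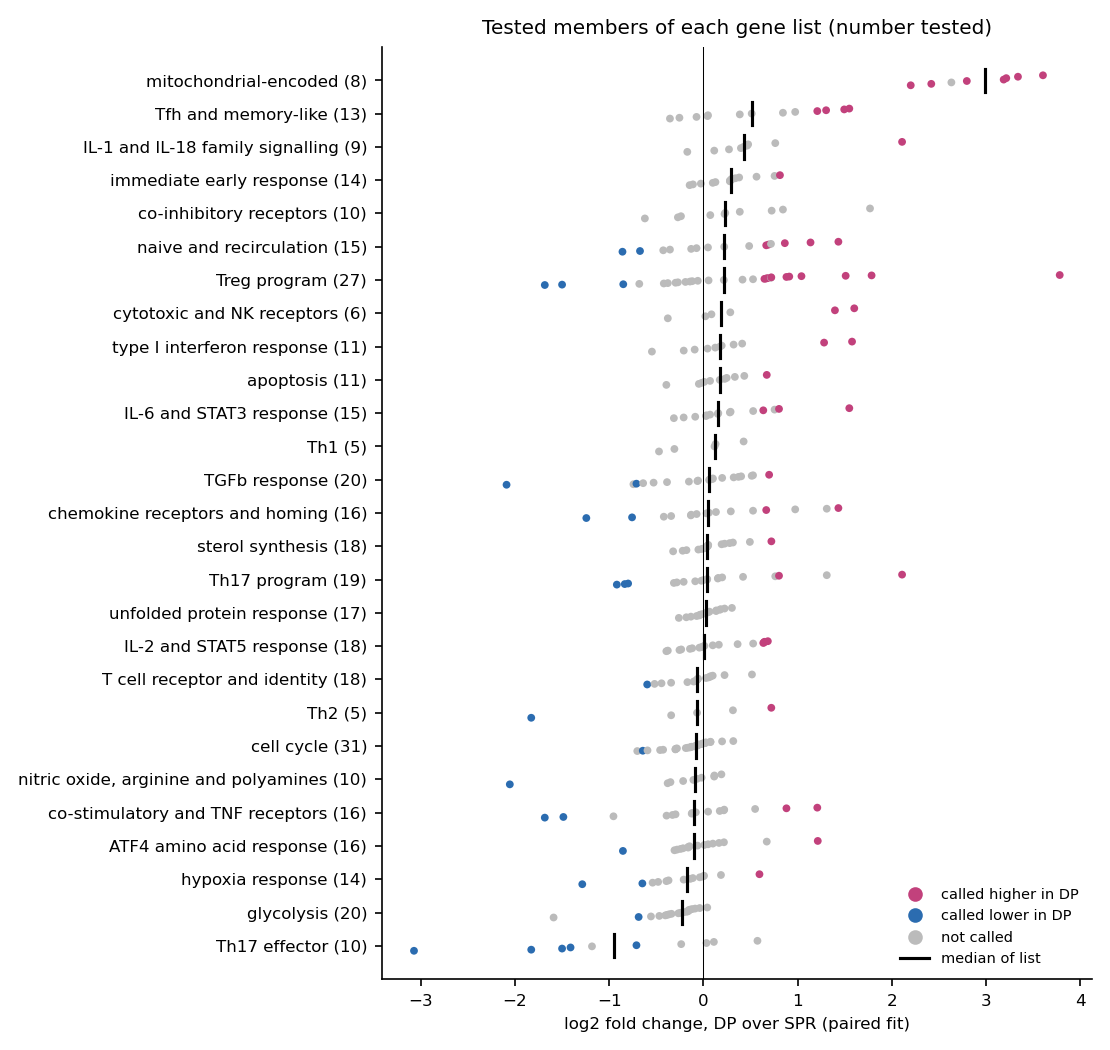
Log2 fold change of DP over SPR cells (x axis, paired fit) of each tested member of the 27 gene lists with at least 5 tested genes, ordered by the list's median (black bar), with genes called higher in DP in pink, called lower in blue and not called in grey. The Th17 effector list has the lowest median, -0.95, and the mitochondrial-encoded list the highest, 2.99, which rests on pairs 2 and 3.

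Transcripts of the mitochondrial genome were uneven among the DP libraries. The 9 listed mitochondrial-encoded genes that the table holds summed to 533.8, 2856 and 5199 CPM in DP and to 543, 232.4 and 326 CPM in SPR, in the order of replicates 1, 2 and 3. DP replicate 1 was therefore at the SPR level, and DP replicates 2 and 3 stood above it. Of 8 tested genes, 7 were called higher, against 1.97% of all tested genes, but none was called without pair 3 or in DESeq2. The list's median was 2.99 in the fit but -0.337, 3.86 and 4.21 in pairs 1, 2 and 3. mt-Rnr2, a mitochondrial ribosomal RNA, had 67.3, 572 and 1712 CPM in DP and 61.4, 24.97 and 32.7 CPM in SPR (edgeR log2 fold change 3.61 ± 0.85 SE, adjusted p = 0.039), and mt-Nd4, a subunit of respiratory complex I, had 403, 1665 and 2100.1 CPM in DP and 382, 176 and 233 CPM in SPR (edgeR log2 fold change 2.20 ± 0.51 SE, adjusted p = 0.037). Without pair 3 the adjusted p was 0.247 for mt-Rnr2 and 0.268 for mt-Nd4, and DESeq2 gave 0.139 and 0.312.

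A few nuclear genes followed the same libraries. Among the 177 genes called higher, 12 had a log2 ratio under 0.5 in pair 1 and over 1 in pairs 2 and 3: the 7 mitochondrial-encoded genes, Eif3e, Klrd1 and, named after their values were seen, Cd53, Ggt1 and Ms4a4b. Eif3e, a subunit of a translation initiation factor, had 7.15, 53.5 and 76.9 CPM in DP and 6.63, 6.46 and 9.84 CPM in SPR replicates (edgeR log2 fold change 2.32 ± 0.41 SE, adjusted p = 0.011), with an adjusted p of 0.188 without pair 3 and 0.307 in DESeq2. Cd53, a tetraspanin of leukocytes, had 18.5, 66.2 and 96.98 CPM in DP and 19.5, 12.1 and 26.1 CPM in SPR (edgeR log2 fold change 1.45 ± 0.35 SE, adjusted p = 0.0412), with 0.315 and 0.578 in these 2 fits. The part of mitochondrial RNA content or RNA quality in these results was not tested. With mitochondrial-encoded genes left out before normalization, 314 genes were called, 306 of them also called with those genes in. In pair 1, where their sum was alike in DP and SPR, 171 of the 177 genes called higher were above 0 and all 136 genes called lower were below 0. That pair was part of the fit that called them, so this is a description.

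**Figure D5:**
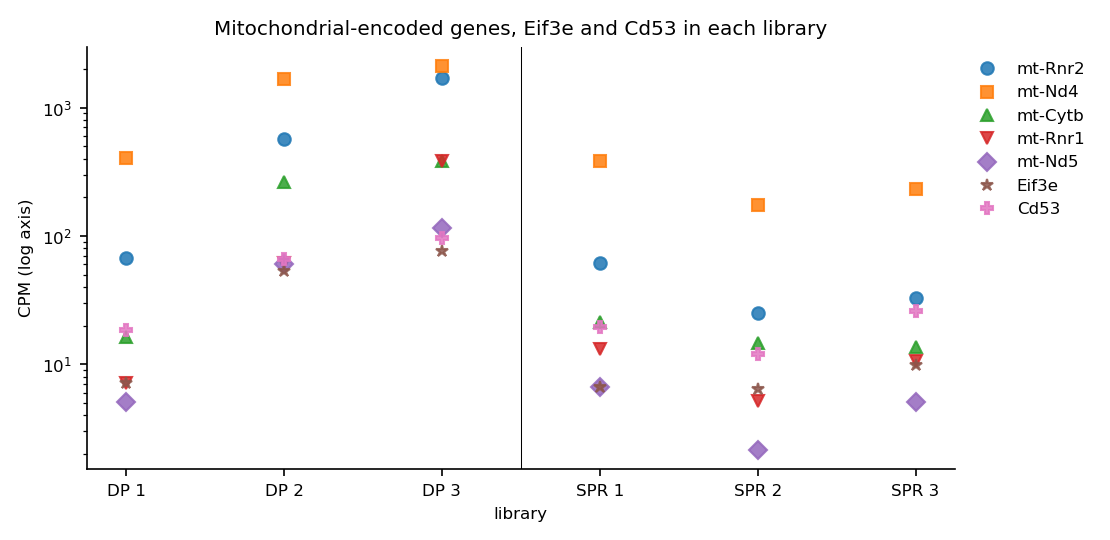
CPM (log axis) of 5 mitochondrial-encoded genes and of the nuclear genes Eif3e and Cd53 in each of the 3 DP and 3 SPR libraries. All 7 are high in DP 2 and DP 3, while DP 1 lies near the 3 SPR libraries.

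Some called genes lay side by side in the genome. Of 8860 tested genes matched to the annotation (GENCODE M21, GRCm38), 14500 pairs lay within 100 kb, and both genes were called in 28 of them (0.193%). In 24 of the 28 the direction was the same, with 15 pairs higher and 9 lower in DP. Besides those described, these included Ankrd55 with Il6st among the higher genes, and Fcmr with Il24 and Tnfsf14 with C3 among the lower ones. The 4 pairs of opposite direction were Foxp3 with Ccdc22, H2-Ob with H2-Ab1, Arl5c with Stac2 and Gsn with Stom. Pairs were taken as they fell, and their partners outside the lists were named after their values were seen. Whether counting used strand is unknown here, so counts of overlapping genes cannot be told apart.

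Further short motifs were searched on both strands of the same 300-base windows, as a description. TGANTCA, the site of AP-1 factors, was present in 10.4% of 135 promoters of genes higher in DP, 10.2% of 88 promoters of genes lower in DP and 4.23% of 6911 promoters of all tested genes with an entry. TGTTTAC, a forkhead site, was present in 3.70%, 4.55% and 2.45%, TTCNNNGAA, a STAT site, in 6.67%, 3.41% and 6.73%, GCGTG, the core bound by the aryl hydrocarbon receptor, in 48.1%, 46.6% and 55.1%, and CACGTG, an E-box, in 7.41%, 10.2% and 11.1%, in the same order.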

How the data were processed

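RNA of sorted DP, SPR and SPF cells was measured by MARS-seq in 9 libraries. The deposited table holds raw counts for each gene, which the authors made with cutadapt, STAR, SAMtools and HTSeq on mm10, as the submitters' processing notes name them. The sources used here do not give versions, annotation, strand setting or use of molecular identifiers. The table's 1 unnamed row, a total, and 1 column that holds no library were left out. Columns of DP and SPR libraries were compared; the totals per library are in the report, and their precision covers counting error only.

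Genes above 10 CPM in at least 1 of the 6 libraries were fitted with edgeR 4.0.16 (TMM factors 0.963 to 1.04, quasi-likelihood, 2 residual and 10.0 prior degrees of freedom, R 4.3.3) with the replicate number as a block, and a Benjamini-Hochberg adjusted p under 0.05 was called. The study describes independent biological repeats. The block was used because deviations from group means correlated at 0.218, 0.392 and 0.406 for equal replicate numbers (-0.341 to -0.023 for unequal ones). Deviations within a group cancel out, so the negative values follow from the positive ones and are no separate support. These correlations came from the same libraries as the calls. With 3 libraries against 3 and no pairing, an exact two-sided permutation p cannot go below 0.1. Exchanging labels only within the 3 pairs allows fewer arrangements and so a higher limit, and no such p is given. Alternatives were DESeq2 1.42.0, limma 3.58.1, RLE factors, library totals, other filters, fits without the block or with all 9 libraries, mitochondrial-encoded genes left out, and each pair left out. Scripts were tested on simulated data.

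Named are Foxp3, the 15 largest increases and decreases among called genes that moved 1 way in all pairs and averaged 20 CPM or more in the group with more, called members of 31 gene lists, and genes the study names. The values of some genes are not reported here. The genes, lists and tests were chosen with earlier results of these data known. CPM use library totals, and fold changes use TMM factors. Positions are from GENCODE M21 and promoter sequences from RefSeq (GRCm38.p6).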

Additional observations from a re-analysis of the deposited data

How the results depend on the processing

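The paired fit called 313 genes, 177 higher and 136 lower in DP. Its size depended on the replicate block and on which libraries entered the fit: without the block edgeR called 6 genes in the 6 libraries (6 higher, 0 lower) and 1 in all 9 (1 higher, 0 lower), all 9 libraries with the block gave 7 (5 higher, 2 lower), and DESeq2 without the block, chosen after the data were examined, gave 85 (61 higher, 24 lower). DESeq2 with the block called 147 genes (94 higher, 53 lower), 142 of them also called in edgeR, and testing every gene with a count gave 646 (341 higher, 305 lower). The fold threshold of 2 left 150 (95 higher, 55 lower). Each pair left out in turn gave 84 to 437 calls, 54 to 251 higher and 30 to 186 lower. DP replicate 1 alone against the 3 SPR libraries, also added after the data were examined and with the lone library assumed to vary like the others, called 1 gene (1 higher, 0 lower; 681 at an unadjusted p under 0.05), with the same direction for 172 of the 177 higher and 135 of the 136 lower genes. RLE factors (297), library totals (328), filterByExpr (299), limma (296) and leaving out mitochondrial-encoded genes (314) changed the count by less than 1.5 times. Scaling by library totals moved the share of calls higher in DP to 66.5%, against 56.5% with TMM, and the median log2 fold change of all tested genes to 0.0385, against -0.0056. All 313 genes kept their direction in each fit that tested every one of them, other than that with DP replicate 1 alone. With filterByExpr 302 did, and 306 did without mitochondrial-encoded genes. Both counts leave out called genes that the fit did not test, such as the 7 mitochondrial-encoded ones in the latter. All these fits, that with DP replicate 1 alone included, reused libraries of the fit that called the genes, so the shared direction is a description.

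A gene at 10 CPM had 15 to 38 counts in a library, which limits what can be called at low levels. Replicates numbered alike need not be one animal. The p-values rest on the spread between these 3 pairs and on variance shared across genes. The edgeR fit had 2 residual and 10.0 prior degrees of freedom. A gene can thus be called though its pairs disagree, as mt-Cytb was with log2 ratios of -0.44, 4.11 and 4.77 in pairs 1, 2 and 3.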
